A study of Mus musculus with 3 samples.

Results

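Areg, Penk, Pparg, Hpgd, Hpgds, Ptger2 and Ptger4 are 7 genes tied to the tissue repair and prostaglandin biology of regulatory T cells, and they were taken by name from the 55536 mouse genes of the deposited table. RNA selected for poly(A) tails was sequenced from activated regulatory T cells (Tregs), CD4 T cells that restrain immune responses and depend on the transcription factor Foxp3. The cells were primary cells of a male mouse aged 4 months, of the strain Foxp3CreERT2 x Rosa26YFP, which carries an inducible Cre recombinase at Foxp3 and a fluorescent reporter. The labels trace them to bone marrow hematopoietic cells, and they give neither the tissue sampled nor how the cells were activated, sorted or treated. All 3 libraries, labelled technical replicates 1, 2 and 3 of biological replicate 1, make up a single group. Without a control, the text gives levels and their spread over the libraries and compares no conditions.

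Tregs act in tissues as well as in lymphoid organs. Amphiregulin, the product of Areg, is a ligand of the epidermal growth factor (EGF) receptor that Tregs release in damaged lung and muscle, and proenkephalin, the product of Penk, is the precursor of the opioid peptides called enkephalins. Prostaglandin E2 reaches T cells through the receptors EP2 and EP4, encoded by Ptger2 and Ptger4, which raise cyclic AMP, and it is broken down by the enzyme that Hpgd encodes. Pparg encodes the nuclear receptor PPARγ, known for its part in the Tregs of visceral fat, and Hpgds encodes hematopoietic prostaglandin D synthase.

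The library depth was 10981924, 9700630 and 6667391 expected counts (estimated fragments assigned to genes) in replicates 1, 2 and 3. A count of 0 allows up to 3 counts, or 0.273, 0.309 and 0.45 in CPM (counts scaled to the library total). Floors and intervals here reflect counting error and no other source of error. The 8 genes chosen as Treg and T cell markers all had at least 1 TPM (a level corrected for transcript length and scaled within the library) in every library. Foxp3 had 29.49, 28.72 and 49.75 TPM. Over all protein-coding genes, 45.3% reached at least 1 TPM in all libraries. Of markers of other cells, 4 of 5 for B cells did, with Cd79b at a mean of 55.7 TPM beside 36.0 for Foxp3. So did 3 of 7 for myeloid cells, 1 of 4 for CD8 T cells, 1 of 5 for NK cells and 2 of 6 for dendritic cells. Of 5 for stromal and endothelial cells, 1 did, Pecam1, at a mean of 88.2 TPM. Col1a1, Col1a2, Pdgfra and Cdh5 of that list were at or under 0.3 TPM. None of 4 each for eosinophils, platelets and neurons reached 1 TPM in all libraries. Replicate 3 stood apart: the chi-square per degree of freedom over all genes was 30.7 against replicate 1 and 30.3 against replicate 2, beside 11.4 between replicates 1 and 2.

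The 7 genes covered a wide range of levels. Penk was the highest, at 67.0 ± 29.7 TPM (SD, n = 3), and accounted for 51.5% of their summed mean level. Ptger2 followed at 30.3 ± 2.84 TPM and Ptger4 at 25.1 ± 3.64 TPM. Hpgds had 4.5 ± 1.28 TPM, Areg 1.72 ± 0.441 TPM, Pparg 1.07 ± 0.18 TPM and Hpgd 0.433 ± 0.356 TPM. The median protein-coding gene had 0.643 TPM, and the median of those detected had 20.9 TPM. In this order Ptger2 and Ptger4 overlapped between libraries, as did Areg and Pparg, while the other neighbours did not. Ptger2 was nevertheless above Ptger4 within each of the 3 libraries, by 1.12 to 1.26 times, and Areg above Pparg by 1.34 to 2.05 times. In bulk RNA, fewer cells that express a gene and less RNA of it per cell cannot be told apart.

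**Figure D1:**
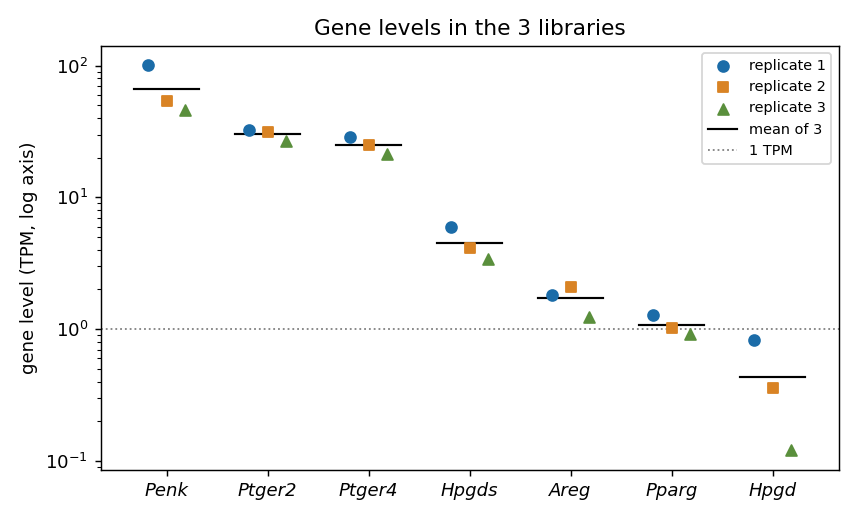
Level of the 7 genes in TPM (log axis) in each library, with points for replicates 1, 2 and 3, a bar for their mean and a dotted line at 1 TPM. Penk is highest in replicate 1, at 100.87 TPM, and every gene is lowest in replicate 3.

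The genes at or above 1 TPM in all 3 libraries numbered 5, namely Penk, Ptger2, Ptger4, Hpgds and Areg, beside 45.3% of the 22028 protein-coding genes. Pparg fell short in replicate 3 and Hpgd in each library. Of the 7 genes, 6 exceeded 3 counts in every library, beside 50.2% of protein-coding genes, and Hpgd exceeded 3 counts in replicates 1 and 2. At a minimum of 0.5 TPM, Pparg was counted as well and the number was 6. The share of all genes at that minimum was not counted.

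Differences between the 3 libraries were tested for genes averaging 10 or more counts, by a chi-square test of counts against effective library sizes, adjusted by Benjamini-Hochberg over all 12997 genes tested. Of the 6 genes tested here, 3 varied beyond sampling noise (Penk, Ptger2 and Ptger4), and the same test called 65.4% of all genes. Among protein-coding genes the share called was 48.4% at a mean count of 10 to 100 and 72.0% at 100 to 1000, so it grew with depth. The 65.4% set beside gene lists below is not matched for depth. When the dispersion that edgeR estimated from these libraries was added to the variance, none of the 6 passed, beside 1.18% of all genes, and Penk alone had an unadjusted p under 0.05. That dispersion already holds the usual spread between these same libraries. A gene passes only if it varies more than most genes of its level, and not passing cannot show that its libraries are alike. Without replicate 1 and without that dispersion the number that varied was 1, Ptger2, beside 51.7% of the 12880 genes then tested. By that chi-square test the adjusted p was 0.239 for Penk and 0.119 for Ptger4. In TPM, all 7 genes were lowest in replicate 3, beside 42.9% of the tested protein-coding genes. The median gene was shifted there by -0.05 on the log2 scale. Of the 7 genes, 6 were highest in replicate 1. The share of all genes highest in that library was not counted, so the 6 cannot be set against it.

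Areg lies at chr5:91139599-91148432 on the plus strand of mm10 and has 1 transcript model of 6 exons. Its level was 1.83, 2.09 and 1.23 TPM in replicates 1, 2 and 3. These levels rest on 17, 16 and 7 counts, or 1.55, 1.65 and 1.05 CPM, with exact 95% binomial intervals of 0.902 to 2.48, 0.943 to 2.68 and 0.422 to 2.16. The intervals overlap in all pairs, and the libraries did not differ beyond sampling noise (adjusted p = 0.562, chi-square over all genes). Areg was thus transcribed at a low level in each library, above that of 54.6% of protein-coding genes. The M4 gene counts, a separate deposited table on an older annotation, gave 32, 32 and 19.

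Prostaglandin E2 signals through cyclic AMP, and the factor CREB binds the cyclic AMP response element. That 8-base element is shown for Areg because it lies in the RefSeq window (GRCm38.p6) around its start site, 53 bases before the start, in capitals at chr5:91139538-91139545 within plus strand chr5:91139527-91139556.
Areg promoter: gggctggtccgTGACGTCAcgggcggtggc
The element TGACGTCA reads the same on both strands. Of the 6 genes matched in the promoter table, 1 held it between 250 bases before and 50 after a start, beside 1.79% of all 32851 windows of that length and 2.03% of 27025 genes. The match describes these letters and no binding was measured.

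The other EGF family ligands were low. Here and below, the highest and lowest gene of a list are by mean TPM. Of 11 ligands, 2 were detected at 1 TPM in all libraries, namely Areg and Nrg4, beside 45.3% of protein-coding genes. Nrg4, which encodes the ERBB4 ligand neuregulin 4, had 3.06, 3.16 and 2.93 TPM. Hbegf, which like Areg binds the EGF receptor, had 1.37, 1.12 and 0.65 TPM. Egf had 0.66, 1.39 and 2.81 TPM. Of the 4 ligands tested Egf alone varied between libraries, beside 65.4% of all genes (adjusted p = 5.41e-08, chi-square over all genes). With the edgeR dispersion added its adjusted p was 0.691. Tgfa was at or under 0.07 TPM, and Ereg, Epgn and Nrg2 were at 0. Amphiregulin is made as a membrane protein and freed by the protease ADAM17. Of 9 receptor and shedding genes, 4 were detected, beside 45.3% of protein-coding genes, and 3 of 4 tested varied, beside 65.4% of all genes. Adam17 had 48.37, 54.9 and 45.83 TPM, and Rhbdf2, which encodes a partner that carries ADAM17 to the surface, had 3.86, 4.09 and 4.27 TPM. Adam10, a related protease, had the highest mean of the list, at 57.09, 61.18 and 44.43 TPM, with Adam17 above it in replicate 3. Egfr, the receptor of amphiregulin, was at 0, 0.04 and 0 TPM, while Erbb3 had 3.31, 5.82 and 3.53 TPM. The Adam17 transcript level was above that of Areg in every library, and Egfr was at or under 3 counts.

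Penk lies at chr4:4133531-4138819 on the minus strand of mm10. The enkephalin copies are shown because they are the peptides for which the gene is known: the coding sequence of Penk-201, its main transcript model, spans 804 bases and holds 7 in-frame copies of 15 bases. Of these, 6 match the codons of Met-enkephalin and 1 those of Leu-enkephalin, searched on the coding strand with any codon of each residue. They are given 5′ to 3′ on the coding strand with the copy in capitals and 6 bases on each side, from the GENCODE M21 transcripts, in order from chr4:4134334-4134348 to chr4:4133848-4133862.
Penk copy 1: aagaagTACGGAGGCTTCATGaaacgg
Penk copy 2: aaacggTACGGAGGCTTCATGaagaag
Penk copy 3: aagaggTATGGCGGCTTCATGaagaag
Penk copy 4: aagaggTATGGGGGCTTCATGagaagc
Penk copy 5: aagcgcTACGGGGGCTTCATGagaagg
Penk copy 6: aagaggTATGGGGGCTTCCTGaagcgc
Penk copy 7: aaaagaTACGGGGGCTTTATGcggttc
Copy 6 is the Leu-enkephalin copy. Copies 1 to 3 lie within Penk-202, a shorter coding model that ends before copy 4.

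Penk had 100.87, 54.22 and 45.8 TPM in replicates 1, 2 and 3, a level above 90.8% of protein-coding genes. Its counts were 1003, 445 and 287.99, or 91.3, 45.9 and 43.2 CPM, with exact 95% intervals of 85.8 to 97.2, 41.7 to 50.3 and 38.4 to 48.5. Replicate 1 stood 2.05 times above the mean CPM of the others, whose intervals overlap. The difference exceeded sampling noise (adjusted p = 1.28e-53, chi-square over all genes), but not with the edgeR dispersion added (adjusted p = 0.378), and without replicate 1 it was not called (adjusted p = 0.239). The excess in replicate 1 was present in the other tables: the second quantification gave 63.5, 35.2 and 30.8 TPM, and the M4 counts were 1626, 703 and 446. B cell markers were also highest in replicate 1 in summed level, at 101, 67.4 and 83.9 TPM with 4 of 5 markers detected, and none of that list was at 0. Myeloid markers summed to 24.2, 9.88 and 23.6 TPM with 3 of 7 detected. Their part in the Penk difference was not tested.

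Penk-201 took 78.1%, 78.0% and 82.9% of the gene's TPM and Penk-202 the rest, so the proportions of the models differed little between libraries while the level was highest in replicate 1. The second quantification gave Penk-201 a smaller share, 53.5%, 53.3% and 58.1%. The opposite-strand gene A830012C17Rik shares 233 exon bases with Penk and had 20.02, 13 and 4.01 counts. The sources used here do not say whether the counting used strand, so reads from shared bases cannot be told apart.

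Among 9 opioid precursors and receptors, 2 were detected, Penk and Ogfr, beside 45.3% of protein-coding genes. Ogfr, which encodes a nuclear-membrane receptor of Met-enkephalin, had 18.8, 16.74 and 20.42 TPM and was the lowest detected gene of this list. Both, the only genes of the list tested, varied between libraries beyond sampling noise, beside 65.4% of all genes. Of the classical receptors, Oprd1 and Oprk1 were at 0 in all libraries, also in M4 counts. Oprm1 had 0.07, 0.47 and 0.69 TPM, on 1, 6 and 7 counts, but 25, 16 and 26 M4 counts. The other precursors were lower than Penk: Pomc had 1.4, 0.84 and 1.14 TPM and Pdyn was at 0. Of 10 genes for processing or degrading neuropeptides, 6 were detected, beside 45.3% of protein-coding genes, and 3 of 6 tested varied, beside 65.4% of all genes. Pcsk1 and Pcsk2, the prohormone convertases of endocrine cells and neurons, were at or under 0.14 TPM. The broadly expressed convertases Furin and Pcsk7 had 11.89, 10.92 and 14.87 TPM and 14.54, 22.78 and 20.21 TPM. Cpe, the carboxypeptidase that trims the cut peptides, had the lowest mean of those detected, at 2.46, 1.82 and 2.35 TPM, though Pam was below it in replicate 1.

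**Figure D2:**
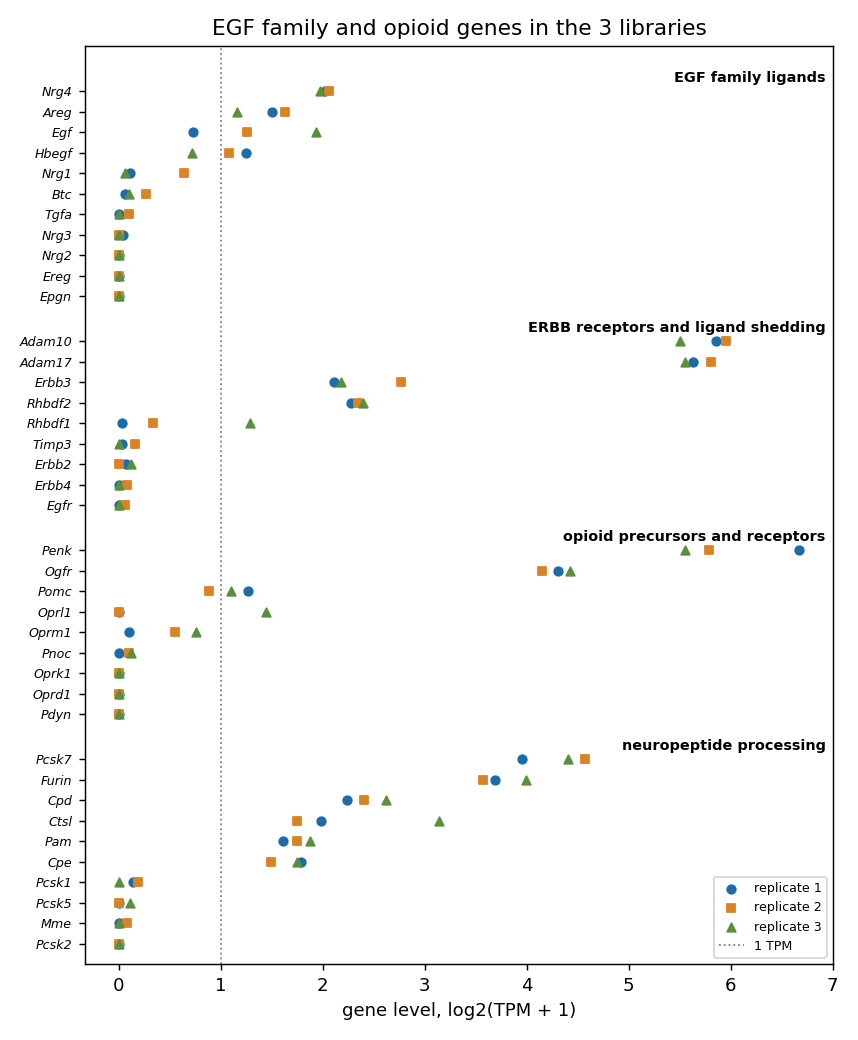
Level of each EGF family, ERBB and shedding, opioid and neuropeptide-processing gene as log2(TPM + 1), 1 point per library, with a dotted line at 1 TPM. Penk and the proteases Adam10 and Adam17 lie to the right, while Areg lies just past the line and most other ligands and opioid genes lie at or near 0.

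Ptger2 (EP2) lies at chr14:44988195-45003820 on the plus strand. Its level was 32.31, 31.45 and 27.02 TPM, on 861.52, 684.19 and 391.73 counts (78.4, 70.5 and 58.8 CPM). Ptger4 (EP4) lies at chr15:5206661-5244187 on the minus strand. Its level was 28.81, 24.91 and 21.54 TPM, on 801.81, 574.04 and 366.4 counts (73.0, 59.2 and 55.0 CPM). Both receptors were highest in replicate 1 and lowest in replicate 3, with 1.33 times between the highest and lowest CPM for each. Both differences exceeded sampling noise by the chi-square test over all genes, with an adjusted p of 1.83e-07 for Ptger2 and 5.63e-08 for Ptger4, and neither did with the edgeR dispersion added, where the adjusted p was 1.0 for each. Ptger4 was not called without replicate 1 (adjusted p = 0.119). They lay above 82.3% and 80.0% of protein-coding genes.

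For Ptger2 the gene level concealed a shift between transcript models. Ptger2-201 is the coding model of 2 exons, and Ptger2-202, annotated as a retained intron, is 1 exon at chr14:44988666-44991316 that runs on into the intron. The bases on each side of the donor are shown because they are what separates the models. Capitals mark the 15 bases after position 44989807 of the plus strand: the next exon, from 45001750, in Ptger2-201 and the intron, from 44989808, in Ptger2-202.
Ptger2-201: tccttgcctttcacaATCTTTGCCTACATG
Ptger2-202: tccttgcctttcacaGTAAGTCACCTTTGT
The coding model had 15.85, 14.68 and 4.88 TPM in replicates 1, 2 and 3, and the retained-intron model had 16.46, 16.77 and 22.14 TPM. The retained-intron model thus took 50.9%, 53.3% and 81.9% of the gene's TPM, highest in replicate 3. The second quantification gave 54.7%, 57.9% and 83.4%. At transcript level, a test chosen after these shares were seen, the counts of Ptger2-201 (497.3, 378.78 and 93.23) differed beyond sampling noise (adjusted p = 3.57e-31) and so did those of Ptger2-202 (364.21, 305.41 and 298.5, adjusted p = 0.00277). The same test called 66.2% of 31587 transcripts. On the second quantification, where it called 62.6% of 40896 transcripts, the adjusted p was 1.76e-36 for Ptger2-201 and 0.03 for Ptger2-202. In the main table, with the edgeR dispersion added neither model passed (adjusted p = 1.0 for each), beside 0.339% of transcripts.

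Retained-intron models were high in Ptger2 relative to other genes. Over 5294 protein-coding genes with such a model and a mean count of at least 100, the median share on these models was 11.4%, 12.7% and 15.4% in replicates 1, 2 and 3. Ptger2 lay above 92.3%, 93.1% and 98.9% of those genes. The general share was thus also highest in replicate 3, and its part in the Ptger2 shift was not tested. Gm17173 and Gm49364, both on the opposite strand, share 246 and 144 exon bases with Ptger2. Gm17173 had 208.03, 171.51 and 55.15 counts and Gm49364 had 218.42, 195.12 and 110.58 counts, so overlapping reads may be divided between them and Ptger2. The coding model of Ptger2 alone had 11.8 ± 6.02 TPM (SD, n = 3), below the 25.1 TPM of Ptger4.

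Ptger4 has a pair of coding models, Ptger4-201 and Ptger4-202, that use different ends of the first exon, at 5243683 and 5243620 on the minus strand. The junction of Ptger4-201 is shown to mark that choice, with capitals for the end of exon 1 and lower case for exon 2, which starts at 5243195.
Ptger4-201: TGGCTGAGGTTGGAGgtaccattcctagat
Ptger4-201 took 71.7%, 29.2% and 51.7% of the gene's TPM and Ptger4-202 took 26.0%, 68.4% and 45.3%. Ptger4-202 led in replicate 2 in this table. In the second quantification the share of Ptger4-201 was lower, at 58.4%, 14.8% and 29.6%, and Ptger4-202 led in replicate 2, at 83.2%, and also in replicate 3, at 67.5%. The share of Ptger4-201 was highest in replicate 1 and lowest in replicate 2 in both, while the leading model in replicate 3 depended on the quantification. The counts of Ptger4-201 were 570.63, 165.41 and 187.23 (adjusted p = 2.99e-48, chi-square over all transcripts), and those of Ptger4-202 were 210.02, 393.13 and 166.47 (adjusted p = 1.1e-17). Neither passed with the edgeR dispersion added, where the adjusted p was 1.0 for each. The processed transcript Ptger4-203 took 2.29%, 2.35% and 3.01%. Ttc33, on the opposite strand, shares 82 exon bases with Ptger4 and had 680, 502.99 and 241 counts, and the pseudogene Gm15937, with 1015 shared bases, had at most 6.97 counts.

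**Figure D3:**
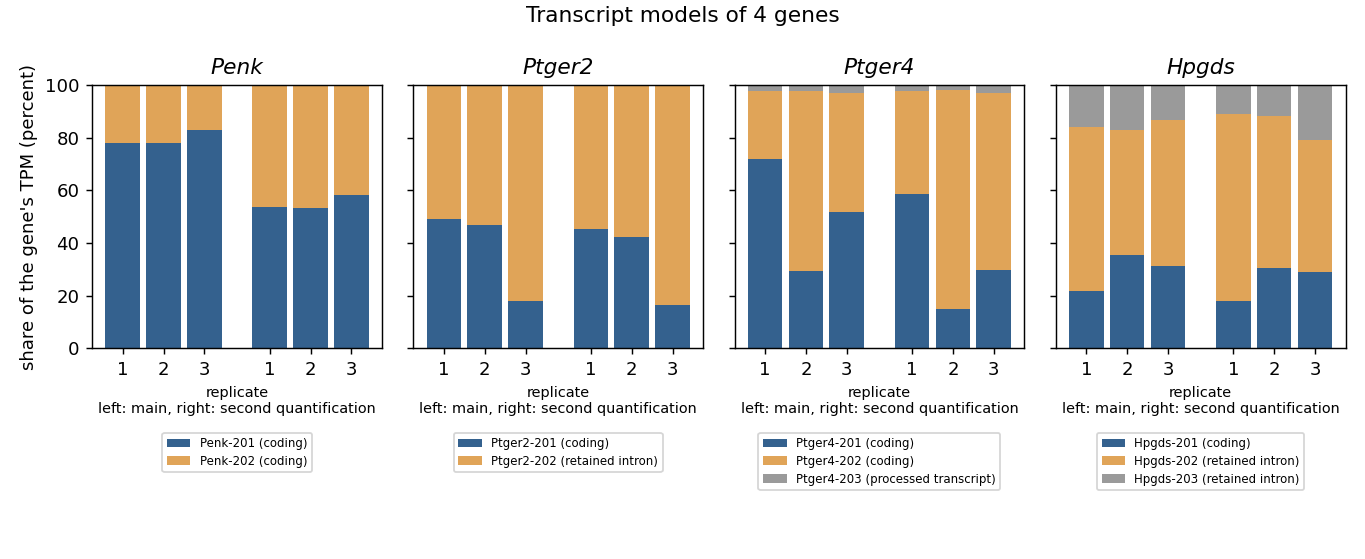
Share of each gene's TPM (percent) taken by its transcript models in replicates 1, 2 and 3, with the main quantification at left and the second at right in each panel. The retained-intron model of Ptger2 reaches 81.9% in replicate 3 against 50.9% and 53.3% in the others, while the share of Penk-201 lies between 78.0% and 82.9% in the main quantification.

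Of the 9 prostanoid receptor genes, 4 were detected, beside 45.3% of protein-coding genes, and 4 of 5 tested varied between libraries, beside 65.4% of all genes. Besides Ptger2 and Ptger4 these were Tbxa2r, the thromboxane receptor, at 16.38, 18.66 and 9.63 TPM, and Ptgir, the prostacyclin receptor, at 10.37, 7.95 and 3.89 TPM. Both were lowest in replicate 3, as Ptger2 and Ptger4 were. The other receptors of prostaglandin E2 were low in TPM: Ptger1 had 0.84, 0.89 and 1.47 TPM and Ptger3 had 0.44, 0.44 and 0.93 TPM. For Ptger1 the M4 counts were higher than the main counts, at 100, 105 and 141 beside 34, 29.46 and 36.22. Ptger3 had 9, 1 and 5 M4 counts. Ptgdr, a receptor of prostaglandin D2, and Ptgfr were at 0 in all libraries. Downstream of EP2 and EP4, 15 of 17 genes of the cyclic AMP pathway were detected, beside 45.3% of protein-coding genes. Of those tested, 14 of 16 varied beside 65.4% of all genes (72.0% of protein-coding genes at 100 to 1000 counts), and 1 did with the edgeR dispersion added beside 1.18%. By mean the detected genes ranged from Prkar1a, a regulatory subunit of protein kinase A, at 394.32, 455.29 and 429.94 TPM, to Adcy3, an adenylate cyclase, at 3.19, 1.73 and 1.85 TPM, with Pde3b below it in replicate 1.

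Hpgds lies at chr6:65117293-65144908 on the minus strand. Its level was 5.91, 4.16 and 3.42 TPM, on 77, 59 and 31 counts (7.01, 6.08 and 4.65 CPM). The exact 95% intervals, 5.53 to 8.76, 4.63 to 7.85 and 3.16 to 6.6 CPM, overlap, and the libraries were not called different by the chi-square test over all genes (adjusted p = 0.11). On M4 counts (60, 35 and 20) the adjusted p was 0.0184, and without replicate 2 it was 0.0461. Most of the Hpgds TPM fell on models annotated as retained introns. In counts these models were slightly above the coding model in replicate 1 and below it in replicates 2 and 3. The coding model held 38.07, 35.69 and 19.23 counts and the retained-intron models 38.93, 23.31 and 11.77. Hpgds-201, the only coding model, had 1.29, 1.47 and 1.07 TPM, and Hpgds-202 with Hpgds-203 took 78.2%, 64.7% and 68.6% of the gene's TPM. The junction that separates the coding model from Hpgds-202 is given because the level of the enzyme's coding transcript depends on that division. Capitals mark the bases after position 65132090 of the minus strand, the next exon from 65123656 in Hpgds-201 and the intron from 65132089 in Hpgds-202.
Hpgds-201: gatcaagatctaaaaGAGCGGATGTTCAAT
Hpgds-202: gatcaagatctaaaaGTAATGTGATGAACT
By the coding model alone Hpgds had 1.28 ± 0.2 TPM (SD, n = 3), close to Areg at 1.72 ± 0.441 TPM, and the ranges of the pair over libraries overlap. Areg, at 1.83, 2.09 and 1.23 TPM, was nevertheless above that coding model within each library, the reverse of the order by gene level. Hpgds-202 is 420 bases long and rests on 7.99, 3.6 and 2.63 counts, so its TPM of 3.69, 1.97 and 1.89 comes from few fragments. Mast cells also express Hpgds. Of 8 mast cell and basophil markers, 6 were at 0 in all libraries of the main table (Cpa3, Mcpt4, Mcpt8, Fcer1a, Gata2 and Tpsb2), and the list summed to 3.24, 1.52 and 6.2 TPM, nearly all of it Kit. In the M4 table Cpa3 had 16, 7 and 5 counts, above 3 in each library and highest in replicate 1, as Hpgds was. Fcer1a had at most 1 M4 count, and Mcpt4, Mcpt8, Gata2 and Tpsb2 were at 0 there too. The part of mast cells in the Hpgds level was not tested.

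Hpgd lies at chr8:56294585-56321043 on the plus strand and was the lowest of the 7 genes. Its level was 0.82, 0.36 and 0.12 TPM, on 11, 4 and 1 counts. In CPM these were 1.0, 0.412 and 0.15, with exact 95% intervals of 0.5 to 1.79, 0.112 to 1.06 and 0.0038 to 0.836. Replicate 1 stood 6.68 times above replicate 3, with an exact 95% interval of 0.971 to 287.0, which includes no difference. With a mean count of 5.33 the gene was not tested, and in replicate 3 it was under the 3-count floor.

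Of 11 prostanoid synthesis genes, 3 were detected, beside 45.3% of protein-coding genes, and 2 of 5 tested varied, beside 65.4% of all genes. Ptges3, which encodes p23, a cochaperone also called cytosolic prostaglandin E synthase, was the highest at 152.26, 143.09 and 134.12 TPM, and Hpgds had the lowest mean of those detected. The M4 counts of Ptges3 were far lower than its main counts, at 240, 208 and 183 beside 2230.55, 1760.83 and 1186.6. Fam213b, now Prxl2b, had 5.1, 4.78 and 5.61 TPM, below Hpgds in replicate 1. The cyclooxygenase genes, whose products make the substrate of Hpgds and of the prostaglandin E synthases, were low. Ptgs2 was at 0 in all libraries and Ptgs1 had 0.61, 1.06 and 0.5 TPM. Ptgds, the lipocalin-type prostaglandin D synthase, was at 0, so Hpgds was the prostaglandin D synthase gene detected here. Ptges2 had 1.22, 0.48 and 1.51 TPM.

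Of 9 genes for prostanoid breakdown and transport, 5 were detected, beside 45.3% of protein-coding genes, and 5 of 6 tested varied, beside 65.4% of all genes. Slco2a1, the transporter that brings prostaglandin E2 to the enzyme of Hpgd, had 0.21, 0.04 and 0 TPM. Abcc4, which exports prostaglandins, had 6.89, 10.35 and 7.64 TPM. Ptgr2, a reductase that follows Hpgd in the breakdown, had 32.18, 34.76 and 12.9 TPM. Cbr1, a carbonyl reductase that also acts on prostaglandin E2, had the highest mean of the list, at 35.07, 32.72 and 25.12 TPM, with Ptgr2 above it in replicate 2, and Cyp4f16 was the lowest detected at 5.78, 5.76 and 2.44 TPM. Ptger2 and Ptger4 were above Hpgd in TPM in every library, while Ptger3 was below it in replicate 1 and Ptger1 was close to it there.

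**Figure D4:**
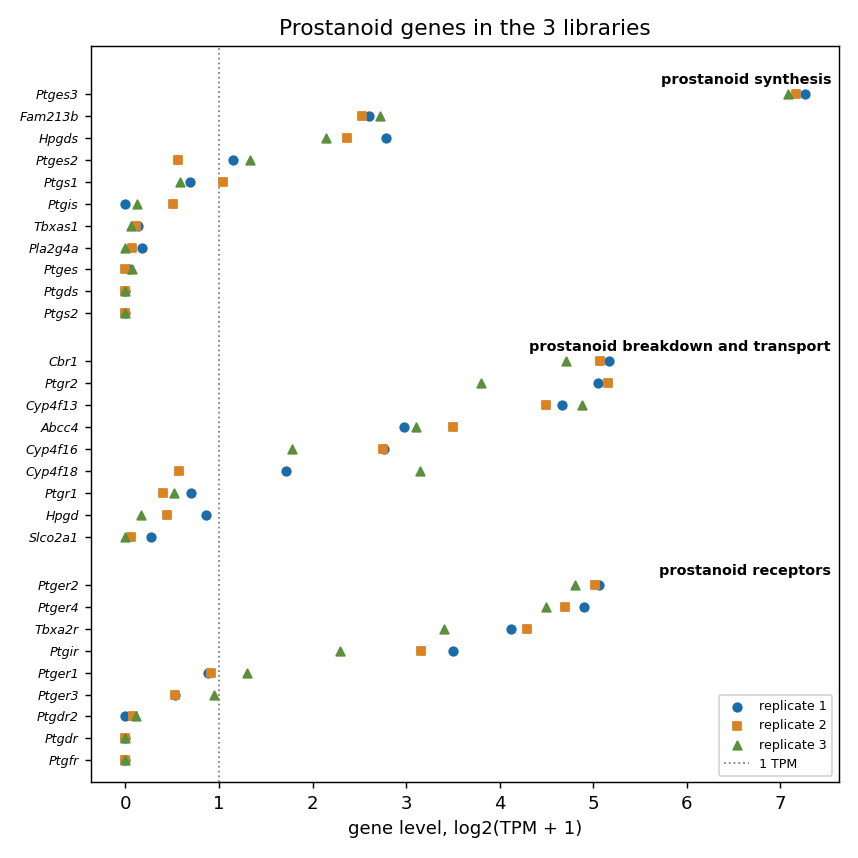
Level of each prostanoid synthesis, breakdown and transport, and receptor gene as log2(TPM + 1), 1 point per library, with a dotted line at 1 TPM. Ptger2 and Ptger4 lead the receptors, Ptges3 leads the synthesis genes, and Ptgs2, Ptgds, Ptgdr and Ptgfr lie at 0 in all libraries.

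Pparg lies at chr6:115360951-115490399 on the plus strand and has 7 transcript models. Its level was 1.27, 1.02 and 0.92 TPM, on 16, 12 and 8 counts. In CPM these were 1.46, 1.24 and 1.2, with exact 95% intervals of 0.833 to 2.37, 0.639 to 2.16 and 0.518 to 2.36, and the libraries were not called different (adjusted p = 0.833, chi-square over all genes). Pparg-201, which starts from a first exon of its own at chr6:115422066-115422192, took 80.3%, 100% and 100% of the TPM. Its junction is shown because that exon tells it from the other models, with the end of the exon in capitals and the shared exon from 115439840 in lower case.
Pparg-201: TGAGCACTTCACAAGaaattaccatggttg
The second quantification also placed all of Pparg on Pparg-201 in replicates 2 and 3, but 0.115% in replicate 1, where it gave 38.0% to Pparg-204, 31.9% to Pparg-207 and 30.0% to Pparg-203. The gene had 16 counts in replicate 1, and the 2 quantifications divided them differently.

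PPARγ works as a dimer with a retinoid X receptor. Of 14 receptors and coregulators, 10 were detected, beside 45.3% of protein-coding genes, and 7 of 11 tested varied, beside 65.4% of all genes. Rxra had 9.15, 12.78 and 6.3 TPM and Rxrb had 7.06, 9.14 and 12.2 TPM, while Rxrg was at 0. Ncor1, a corepressor, was the highest at 127.18, 127.61 and 116.52 TPM, and Ppard, a related receptor, the lowest detected at 1.36, 2.13 and 2.05 TPM. Ppara was at or under 0.07 TPM. Of 16 genes known as PPAR targets in fat, muscle or liver, 10 were detected, beside 45.3% of protein-coding genes. Of those tested, 8 of 10 varied beside 65.4% of all genes (72.0% of protein-coding genes at 100 to 1000 counts). With the edgeR dispersion added 1 did, Scd1, beside 1.18%. Ucp2, a mitochondrial carrier, was the highest at 1051.59, 1061.99 and 651.01 TPM, and Angptl4, a secreted inhibitor of lipoprotein lipase, the lowest detected by mean at 2.91, 2.49 and 4.32 TPM. Scd1, a fatty acid desaturase, was below it in replicates 1 and 2, at 2.55, 1.09 and 9.05 TPM. Fabp4 and Cd36, common targets of PPARγ in fat, were at or under 0.4 TPM. The adipocyte markers Plin1 and Lep were at 0, and none of 4 adipocyte markers was detected, their sum being 0.34, 1.59 and 0 TPM.

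All 16 genes listed for tissue Tregs were detected, beside 45.3% of protein-coding genes. Of these, 13 of 16 varied between libraries beside 65.4% of all genes, and 1 did with the edgeR dispersion added beside 1.18%. Several of them, such as Il2ra and Gata3, averaged more than 1000 counts, a depth at which the share called was not counted. Il2ra, the high-affinity interleukin 2 receptor chain, was the highest of them at 239.24, 272.33 and 236.5 TPM, and Nfil3, a transcription factor, the lowest at 2.9, 1.47 and 2.28 TPM. Il1rl1, the interleukin 33 receptor ST2 whose ligand is known to raise Areg in Tregs, had 6.06, 7.48 and 6.08 TPM. Il1rl1 thus lay above Areg and Pparg in each library. Markers of other cells that express Areg were also read. The list read for group 2 innate lymphoid cells held 7 genes, of which Rag1 is no marker of these cells and its 0 says nothing about them. Of the 7, 2 were detected (Klrg1 and Il17rb). Arg1 had 0.93, 1.84 and 2.86 TPM, short of 1 TPM in replicate 1 alone, and 12, 25 and 40 M4 counts. Il5 and Il13 were at 0 in the main quantification, and Il5 had 0, 3 and 1 M4 counts. Hes1 was at or under 0.09 TPM. The list summed to 28.0, 23.2 and 23.0 TPM, mostly Klrg1, which is on both that list and the tissue Treg list. Il1rl1, Gata3 and Rora, which these cells also express, were detected and counted as tissue Treg genes. Of 4 epithelial markers, Epcam was detected, at 1.85, 2.08 and 1.17 TPM, and the list summed to 2.48, 3.61 and 2.47 TPM. The part of these cells in the Areg level was not tested.

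The genes most alike in level were those with the smallest Euclidean distance of log2(TPM + 1) over the 3 libraries among protein-coding genes. For Areg they were Epcam (0.041), Chic1 (0.072) and Armc3 (0.08), and for Penk they were Mrfap1 (0.24), Polr2k (0.36) and Tmco1 (0.41). Penk had the most distant neighbours of the 6 genes compared. Ptger2 was nearest to Ublcp1 (0.045), Eral1 (0.07) and Bclaf3 (0.073), and Ptger4 to a gene without a symbol here (0.065), Hibch (0.069) and Cfap97 (0.099). Hpgds was nearest to Map2k6 (0.034), Csrp2 (0.096) and Hus1 (0.14), and Pparg to Pls3 (0.076), Dmd (0.12) and Slc27a4 (0.12). The measure uses 3 points per gene and describes these libraries.

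The order of the 7 genes by mean was the same in all 3 deposited quantifications, although the levels differed. In the second quantification the means were 43.1 TPM for Penk, 15.6 for Ptger2, 13.2 for Ptger4, 4.02 for Hpgds, 1.25 for Areg, 0.685 for Pparg and 0.219 for Hpgd. The M4 counts divided by coding bases gave 120.0 TPM for Penk, 68.9 for Ptger2, 38.8 for Ptger4, 6.8 for Hpgds, 4.1 for Areg, 1.51 for Pparg and 0.677 for Hpgd. Areg thus ranged from 1.25 to 4.1 TPM over the quantifications, wider than its spread between libraries in each.

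**Figure D5:**
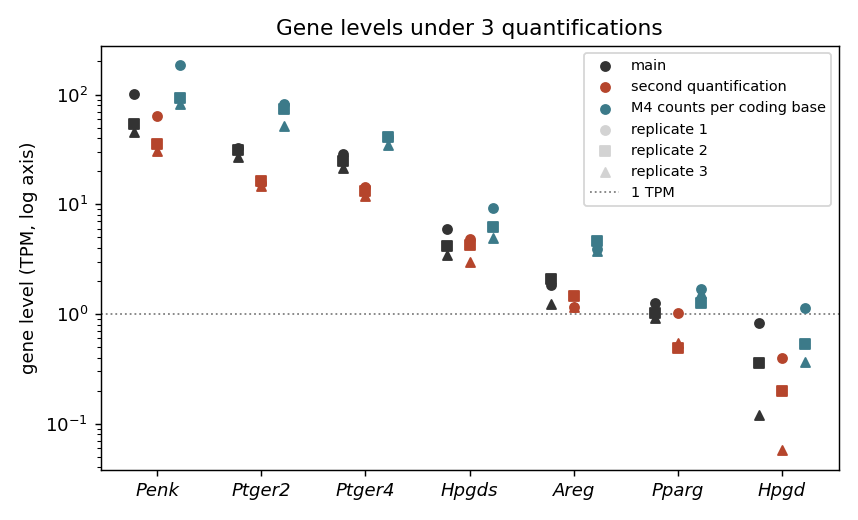
Level of the 7 genes in TPM (log axis) under the main quantification, the second quantification and the M4 counts per coding base, with a shape per library. The order of the means is the same in all 3, and the M4 mean lies above the main mean for every gene, while that of the second quantification lies below it.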

How the data were processed

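PolyA-selected RNA was measured in 3 libraries of 1 group, which the labels call technical replicates, so the SD and p-values measure only the spread between these libraries, which may be technical. Per the file headers and the deposited file lists, the main gene and transcript tables hold expected counts, TPM and, for transcripts, the percent of the gene's TPM (isoform percent), on annotation M21 and mm10, made from transcriptome alignments. A second deposited transcript table holds estimated counts and TPM made from the reads and an index, and a deposited gene table on annotation M4 holds whole-number counts. For the aligner, quantifier, counter and strand setting: not given in the sources used here. Deposited interval bounds and posterior SDs were not used.

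Symbols came from the second transcript table, for 55450 of the 55536 mouse genes. The 26345 entries that name no mouse gene held 0.113%, 0.166% and 0.0873% of expected counts and were left out. CPM are expected counts over the library's gene total. M4 counts rose with coding share relative to main counts (median ratio 0.83, 1.17 and 1.56 in genes of low, middle and high coding share), so they were divided by M21 coding bases, for the 22195 of 22457 genes matched. Expected counts were rounded for the chi-square test (2 degrees of freedom, TMM effective library sizes of edgeR 4.0.16, mean count of at least 10, Benjamini-Hochberg over all genes, threshold 0.05), which was tested on simulated data. The simulated counts held sampling noise only, so they cannot say how the test behaves on the wider spread of these libraries. The chi-square test holds sampling noise only, and the stricter one adds the trended dispersion of edgeR, estimated from the same libraries (common dispersion 0.0702). DESeq2 1.42.0 size factors were an alternative. Intervals are exact Clopper-Pearson at 95%.

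The genes and lists were chosen with earlier results of these data known. All 7 genes were named, with the highest and lowest detected gene of each list, genes acting directly on a product of the 7, and for each tested gene the 3 nearest in level. Genes named beyond this rule for context were chosen after their values were seen, as were the transcript-level tests. Other settings covered quantification, scaling, thresholds and leaving out each library. Promoter windows are from RefSeq (GRCm38.p6), where Penk has no entry.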

Additional observations from a re-analysis of the deposited data

How the results depend on the processing

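Of 95 alternative values of the main results, 78 kept to within 1 SD or 1.5 times and 17 moved. Leaving out 1 of 3 libraries cannot move a mean level or share by 1 SD, so those values were bound to be kept. A wide SD also let means that differed count as kept. With the second quantification these were 43.1 TPM beside 67.0 for Penk and 0.219 beside 0.433 for Hpgd. With the second quantification the mean TPM was 1.25 for Areg, 0.685 for Pparg, 15.6 for Ptger2 and 13.2 for Ptger4, and the share of Penk-201 was 54.9% and of Pparg-201 66.7%. With M4 counts per coding base it was 4.1 for Areg, 120.0 for Penk, 1.51 for Pparg, 6.8 for Hpgds, 68.9 for Ptger2 and 38.8 for Ptger4. With TPM rescaled to protein-coding genes it was 1.27 for Pparg, 36.0 for Ptger2 and 29.9 for Ptger4. The cause of these shifts was not tested, except that the last setting leaves fewer genes to share the total.

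Of the 7 genes, the number detected was 5 and ranged from 4 (at least 10 counts) to 6 (at least 0.5 TPM, M4 counts, or without replicate 3). The share of all genes detected was not counted at those other settings. The number that varied between libraries was 3, beside 65.4% of all genes, and 0 with the edgeR dispersion added, beside 1.18%. With M4 counts it was 4, beside 72.4%. Without replicate 1, 2 or 3 it was 1, 4 and 3, beside 51.7%, 53.6% and 32.2%. Over all genes the number that varied was 8496, against 153 with the edgeR dispersion and 4224 of 13137 without replicate 3, and the other settings gave 6659 to 10345. Depth limits Areg, Pparg and Hpgd most, at 1 to 17 counts per library. No paired analysis was possible because there was 1 group.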
